A study of Mus musculus with 5 samples.

Results

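Neurod4-positive cells of the e16 cerebellum were examined in single-cell RNA data of the developing mouse cerebellum. They were chosen by measured values, the UMIs of 5 genes (unique molecular identifiers, each counting 1 RNA molecule), in the EomesCreER e16 library. A cell was a member where Eomes, Otx2 and Neurod4 each had at least 1 UMI and Mki67 and Top2a, genes of dividing cells, had none. This gave 257 of the 2676 cells of the e16 library and of 6987 cells in the series. They were set beside 1413 comparison cells of the same library, which had Eomes and Lmx1a and no Neurod4. The comparison cells could hold Mki67 or Top2a, as 47 of them did, and 1358 of them had Otx2.

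The series holds 1 EomesCreER e16 library and 4 RL (rhombic lip) libraries, 2 titled e13 and 2 titled e14, all from cerebellum. The titles of all 4 RL libraries also carry the letters UT, which the e16 title lacks. Their meaning is not given here, and whatever they stand for cannot be told apart from the other differences between e16 and RL libraries. RL e13 replicate 2 is titled e13 and carries an age tag of e14. EomesCreER names a mouse line with a CreER recombinase under the control of Eomes; the sources used here give neither the cells it marked, nor how cells were selected, nor the strain and genotype of the RL embryos. The e16 cells come from 1 library, so no difference in it has a replicate check, and its values are given with intervals for counting error only. The libraries held 706 to 2676 cells with medians of 10346 to 19970 UMIs per cell, the e16 library being the shallowest, and 6 cell barcodes occurred in 2 libraries.

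Unipolar brush cells are excitatory interneurons of the granular layer that come from the rhombic lip, the dorsal germinal zone of the cerebellum. They are known for the transcription factors Eomes, Lmx1a and Otx2, and mature ones for calretinin (Calb2). Neurod4 is a basic helix-loop-helix factor that acts in newly formed neurons, and such factors bind E-boxes, the letters CANNTG, in DNA. Barhl2 is a BarH homeobox factor, Gfra1 the receptor that binds GDNF, and Drd1 the dopamine D1 receptor.

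The promoters of Neurod4 and of the genes Barhl2 and Gfra1, 2 of its companion markers, are shown because these RNAs were found in the same cells. Neurod4 lies at chr10:130268152-130280240 on the minus strand, Barhl2 at chr5:106452523-106458166 on the minus strand, Gfra1 at chr19:58235604-58455909 on the minus strand and Drd1 at chr13:54051183-54055705 on the minus strand (GRCm38, GENCODE vM21). The sequences are the 250 bases before the RefSeq start (GRCm38.p6), at chr10:130280255-130280504, chr5:106458167-106458416 and chr19:58455399-58455648. For Neurod4 the first of 2 starts is shown, and the Gfra1 window lies inside the GENCODE gene. Each is written 5′ to 3′ on the minus strand, with matches to CANNTG in capitals.
Neurod4: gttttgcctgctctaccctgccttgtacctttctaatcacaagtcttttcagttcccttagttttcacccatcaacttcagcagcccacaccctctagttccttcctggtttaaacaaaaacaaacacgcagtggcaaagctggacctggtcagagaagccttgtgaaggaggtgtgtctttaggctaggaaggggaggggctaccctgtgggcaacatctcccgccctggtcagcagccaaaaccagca
Barhl2: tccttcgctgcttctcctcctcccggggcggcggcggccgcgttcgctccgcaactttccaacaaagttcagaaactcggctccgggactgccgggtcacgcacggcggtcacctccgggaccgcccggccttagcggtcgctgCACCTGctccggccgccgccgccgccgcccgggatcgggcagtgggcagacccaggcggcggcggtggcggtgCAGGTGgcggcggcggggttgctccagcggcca
Gfra1: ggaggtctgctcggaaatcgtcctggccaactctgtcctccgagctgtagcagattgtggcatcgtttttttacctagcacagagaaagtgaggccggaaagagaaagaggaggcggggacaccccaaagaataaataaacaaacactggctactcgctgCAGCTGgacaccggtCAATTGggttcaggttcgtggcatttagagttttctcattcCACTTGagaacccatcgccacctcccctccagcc
CANNTG, which reads the same on both strands, occurred 2 times before Barhl2, 3 times before Gfra1 and not in the Neurod4 window, and 66.1% of 27025 mouse promoters of this length held it. TAATCC, the core that Otx2 binds, was searched on both strands and occurred in none of the 3 windows, against 6.37% of all promoters.

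Neurod4-positive cells made up 9.60% of the e16 library (95% exact binomial interval 8.51 to 10.8). In the RL libraries the same rule found 0 of 706 cells in RL e13 replicate 1, which by the exact interval allows a share of up to 0.521%. It found 17 cells in RL e13 replicate 2 (0.935%, 0.546 to 1.49), 21 in RL e14 replicate 1 (2.01%, 1.25 to 3.05) and 9 in RL e14 replicate 2 (1.21%, 0.557 to 2.29). The e16 share was the highest of the 5, and its interval lay above those of the 4 RL libraries. With every cell thinned to 5000 UMIs the shares were 0% and 0.332% at e13, 0.575% and 0.814% at e14, and 6.34% at e16, after 2 to 26 cells below that depth had been left out of each library. Age, mouse line, library and any selection of cells cannot be told apart in this order. The libraries also differed in makeup, as comparison cells made up 52.8% of the e16 library and 0.142% to 4.45% of the RL libraries. At e16 there were 257 members to 1413 comparison cells. In the RL libraries, in the order above, there were 0 to 1, 17 to 47, 21 to 20 and 9 to 33. Beside comparison cells, members were thus most frequent in RL e14 replicate 1.

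**Figure D1:**
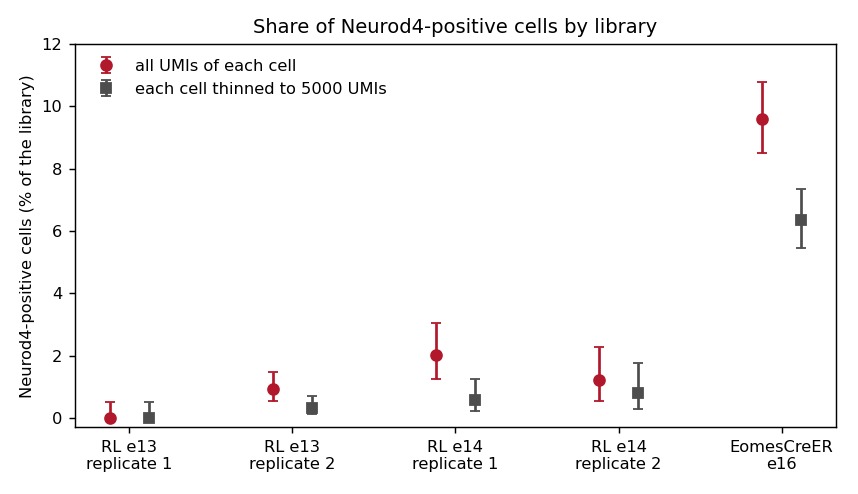
Share of Neurod4-positive cells in each library in percent, with 95% exact binomial intervals, for all UMIs (circles) and after thinning each cell to 5000 UMIs (squares). The e16 library stood at 9.60% and the RL libraries at 0% to 2.01%.

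Neurod4 itself was at low counts: the 257 cells held 510 Neurod4 UMIs, with 1 UMI in 148 cells, 2 in 48 cells and 3 or more in 61 cells, up to 11. Of all 385 cells of the e16 library with Neurod4, 113 others were Eomes and Otx2 cells with Mki67 or Top2a, 12 had no Eomes and 3 had Eomes and no Otx2. Lmx1a, which the rule did not ask for, had a UMI in 180 of the 257 cells. Members had a median of 10647 UMIs per cell against 9862 in comparison cells. No doublet caller was run, and no label says whether doublets had been removed before deposit.

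Levels are given as CPM, the UMIs of a gene per 1000000 UMIs summed over the cells of a group, with 95% exact Poisson intervals. The genes that chose the cells are described first. Neurod4 stood at 178 CPM (163 to 194) in Neurod4-positive cells and at 0 by rule in comparison cells. Eomes was at 843 CPM (810 to 877) in members and 774 CPM (759 to 788) in comparison cells. Otx2 was at 739 CPM (708 to 772) and 490 CPM (479 to 501), and Lmx1a, required only of comparison cells, at 169 CPM (154 to 184) and 274 CPM (265 to 282).

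The markers Barhl2, Gfra1 and Drd1 were each at a higher level in Neurod4-positive cells than in comparison cells, and few members held all 3. Barhl2 stood at 277 CPM (258 to 297) in Neurod4-positive cells, against 110 CPM (105 to 115) in comparison cells. Gfra1 stood at 53.1 CPM (45.0 to 62.2) against 9.65 CPM (8.13 to 11.4), and Drd1 at 26.2 CPM (20.6 to 32.8) against 7.80 CPM (6.44 to 9.38). These 3 genes came with the choice of the cells, so they describe the cells and test nothing. At 5000 UMIs per cell, Barhl2 was detected in 67.2% of members (61.1 to 72.9) and 32.5% of comparison cells (30.0 to 35.0). Gfra1 was detected in 19.1% (14.5 to 24.5) and 4.00% (3.04 to 5.17), and Drd1 in 7.03% (4.22 to 10.9) and 3.07% (2.23 to 4.12). In 41 thinned cells with Tlx3, no Eomes and neither Mki67 nor Top2a, which were taken as a guide to stray RNA, the shares were 9.76% for Barhl2, 4.88% for Gfra1 and 0% for Drd1. Those cells were deeper before thinning, with a median of 15331.5 UMIs. For Gfra1 this share rests on 2 of 41 cells, and comparison cells with Calb2 were at 1.18%, so these cells set no firm level of stray RNA. For Drd1 a count of 0 in 41 cells allows a share of up to 7.32%, taken as 3 divided by the number of cells. This limit is above its share in members. With all UMIs of each cell, 22 of the 257 members had a UMI of all 3 genes, 76 of 2 of them, 125 of 1 and 34 of none, so 13.2% of the cells carried none of them. At 5000 UMIs per cell 63 of 256 members, or 24.6%, had none.

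Brush cell genes other than those of the rule were no higher in the Neurod4-positive cells. Calb2, calretinin, stood at 20.6 CPM (15.7 to 26.6) against 153 CPM (146 to 159). Plcb1, a phospholipase C, stood at 77.9 CPM against 116 CPM and Kcnip4 at 39.1 CPM against 59.0 CPM. Of 6 such genes tested, 2 were lower by the fold used below and 0 higher. The word brush cell therefore rests on the genes of the rule, and the cells are called Neurod4-positive here.

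A gene was counted as higher or lower in the e16 library where its log2(CPM + 5) differed by 1 or more, among the 8064 genes that averaged at least 10 CPM across both groups. By this fold 61 genes (0.756%) were higher in Neurod4-positive cells and 104 (1.29%) lower, 2.05% in either direction, and the median log2 difference of all genes was -0.03. The rule used this contrast, so these counts describe the cells. Counts of called genes in a list are to be read beside these shares.

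Transcription factors of neurogenesis and of the rhombic lip were among the higher genes. Of 14 neurogenic factors tested, 3 were higher and none lower by this fold, with a median log2 difference of 0.58 against -0.03 over all genes. Insm1, a zinc finger factor of progenitors that leave the ventricular surface, stood at 266 CPM (248 to 286) against 104 CPM (98.6 to 109), a log2 difference of 1.32. Ebf2 stood at 34.6 CPM against 12.3 CPM. Other factors did not pass the fold: Neurod1 stood at 238 CPM against 216 CPM, Ebf1 at 714 CPM against 698 CPM, and Neurod2, a factor of more mature neurons, at 337 CPM against 470 CPM, a log2 difference of -0.47. Of 9 homeobox factors tested, Barhl2 and Lhx9 (26.5 CPM against 5.20 CPM) were higher and none lower. Barhl1, the paralog of Barhl2, stood at 520 CPM (494 to 547) against 522 CPM (510 to 534), so the 2 BarH genes differed in their contrast. Pax3, a paired-box factor of the dorsal neural tube, stood at 59.4 CPM (50.8 to 69.0) against 15.0 CPM (13.1 to 17.1), and Olig3, a factor of the rhombic lip, at 30.4 CPM against 10.0 CPM. Lef1, a nuclear effector of Wnt signalling, stood at 60.8 CPM (52.1 to 70.5) against 21.8 CPM (19.4 to 24.3) and was the only 1 of 7 Wnt genes tested to be called.

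Receptors and secreted factors formed the next group. With the genes of the rule left out, Gfra1 had the largest positive log2 difference of all genes with 50 CPM or more in 1 group, 1.99, a ratio of 5.50 (4.35 to 6.97). Ret, the kinase through which Gfra1 signals, had 4 UMIs in members and 3 in comparison cells. The UMIs of all genes numbered 2862789 in members and 14607205 in comparison cells, so like counts are not like levels. Gdnf, the ligand, had 0 and 2 UMIs, and Ncam1, another partner of Gfra1, stood at 772 CPM against 999 CPM. Mdk, the growth factor midkine, stood at 245 CPM (227 to 263) against 72.7 CPM (68.4 to 77.2). 1500015O10Rik, listed by RefSeq as Ecrg4 and coding for a secreted peptide precursor, stood at 309 CPM (289 to 330) against 95.9 CPM (91.0 to 101). Igfbpl1, a secreted relative of the IGF-binding proteins, stood at 1067 CPM (1030 to 1106) against 389 CPM (379 to 399). Trhde, an enzyme that degrades thyrotropin-releasing hormone, stood at 173 CPM against 63.7 CPM. In these 4 genes the level in members was more than double that in comparison cells, and the intervals did not overlap.

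The rest of the 12 highest had various roles. Shb, an adaptor of receptor tyrosine kinases, stood at 98.9 CPM (87.7 to 111) against 23.7 CPM (21.3 to 26.3). Rgs16, a regulator of G protein signalling, stood at 72.7 CPM against 20.2 CPM, Fam132a at 62.2 CPM against 20.5 CPM, and Fam210b, a mitochondrial protein, at 51.0 CPM against 17.1 CPM. Vim, vimentin, an intermediate filament of glia and young neurons, stood at 706 CPM (675 to 737) against 251 CPM (243 to 259). Ccnd2, cyclin D2, which drives entry into the cell cycle, stood at 1083 CPM (1045 to 1122) against 402 CPM (392 to 412), although Mki67 and Top2a were at 0 by rule. Of 9 S phase genes tested, 0 were called, with a median log2 difference of 0.34, and of 10 genes of cell cycle exit 0 were called, with a median of 0.12.

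Of 12 genes with the lowest log2 differences, Calb2 came first at -2.62. Scg2, secretogranin II of secretory granules, followed at 26.5 CPM (20.9 to 33.2) against 171 CPM (164 to 177), and Cnr1, the cannabinoid receptor CB1, at 91.5 CPM (80.8 to 103) against 498 CPM (487 to 510). Arpp21 stood at 11.5 CPM against 61.5 CPM, and Nefl, the neurofilament light chain, at 224 CPM (207 to 242) against 740 CPM (727 to 755). Chl1, a cell adhesion molecule, stood at 14.7 CPM against 56.7 CPM, and Tenm1, a teneurin, at 15.7 CPM against 56.9 CPM. Of 13 cell adhesion genes tested, 3 were lower (Tenm1, Cntnap2 and Cdh11) and 0 higher. The other 5 were Chn2, Spock3, Plcxd3, Bend6 and Lhfp, with log2 differences of -1.63, -1.59, -1.56, -1.49 and -1.49.

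**Figure D2:**
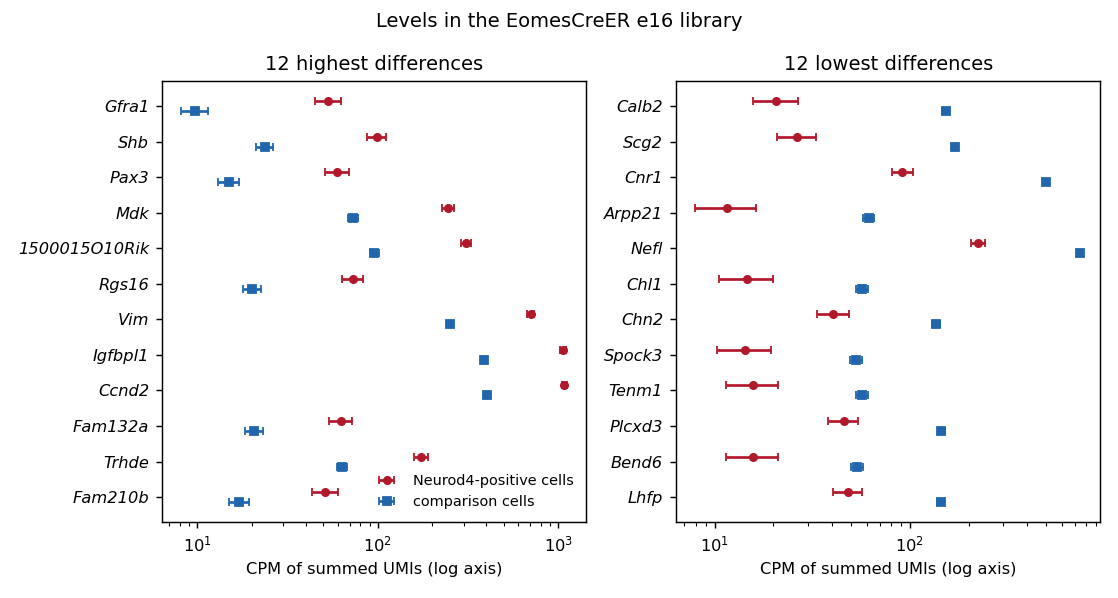
CPM of summed UMIs on a log axis in Neurod4-positive cells (circles) and comparison cells (squares) of the e16 library for the genes with the 12 highest and 12 lowest log2 differences; bars are 95% exact Poisson intervals. The intervals of the groups did not overlap for any of these genes, as for Gfra1 (53.1 against 9.65 CPM) and Cnr1 (91.5 against 498 CPM).

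Glutamate receptors and synaptic organisers were lower in part. Of 6 ionotropic glutamate receptor genes tested, 3 were lower and none higher, among them Gria2 (267 against 551 CPM) and Grin2b (42.6 against 105 CPM), while Grik2 stood at 42.6 against 39.7 CPM. Of 9 metabotropic glutamate genes tested, 2 were lower, Grm5 (8.73 against 32.9 CPM) among them, and none was higher. Cbln1, a secreted synapse organiser, stood at 341 CPM (320 to 363) against 727 CPM (713 to 741), and Lrp8, a reelin receptor, at 29.7 against 70.2 CPM. Of 16 axon guidance genes tested, 3 were lower, Nrp1 (55.5 against 129 CPM), Plxna1 (6.99 against 21.0 CPM) and Unc5d (log2 difference -1.08), and none was higher. Of 15 genes of neuronal differentiation, Nefl and Nefm (41.2 against 104 CPM) were lower and 0 higher, while Tubb3, an early neuronal tubulin, stood at 3570 against 3395 CPM. Elavl4, an RNA-binding protein of neurons, stood at 387 against 364 CPM, so it and Tubb3 did not pass the fold.

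Of 13 genes tested from a list tied to Group 3 and Group 4 medulloblastoma, 1 was lower and 0 were higher, against 1.29% and 0.756% of all genes. With 1 call this is no result about the list. That gene was Runx1t1, a corepressor of the CBFA2T family, at 73.0 CPM (63.4 to 83.6) against 169 CPM (162 to 175). Its relatives stood the other way without passing the fold, Cbfa2t2 at 69.2 against 41.8 CPM and Cbfa2t3 at 162 against 105 CPM. Mycl stood at 79.3 against 56.5 CPM and Mycn at 20.3 against 16.4 CPM.

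Markers of other cells were counted in the same sums. Of 10 GABAergic genes in the table, 3 were at 0 in members (Gad1, Skor2 and Slc32a1), and the sum was 87.0 CPM in members against 37.3 CPM in comparison cells, with Lhx1 at 43.0 against 24.3 CPM. Of 11 radial glia genes, Hes1 and Gdf10 were at 0 and Sox2 had 1 UMI, and the sum was 764 against 293 CPM, of which Vim made up most. Of 5 genes of Tlx3 neurons in the table, Isl1 and Pou4f1 were at 0, and the sum was 58.3 against 41.8 CPM. All 4 meningeal genes were at 0, and the sums of the microglial, endothelial, red blood cell, oligodendrocyte and photoreceptor genes were at most 10.1 CPM in members. Immediate-early genes, which dissociation can raise, summed to 3035 CPM in members against 2277 CPM in comparison cells, with 0 of 8 tested called and log2 differences of 0.25 to 0.87; their part in the results was not tested.

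Levels differed with the Neurod4 count, which was read in Eomes and Otx2 cells without Mki67 or Top2a. The 1911 such cells without a Neurod4 UMI lay just outside the rule, and the 148 cells with 1 UMI just inside it. Barhl2 stood at 126 CPM with 0 Neurod4 UMIs, 235 CPM with 1, 369 CPM with 2 and 306 CPM with 3 or more. Gfra1 stood at 10.1, 44.7, 69.3 and 61.2 CPM in the same order, Drd1 at 5.80, 19.3, 17.3 and 49.5 CPM, and Pax3 at 16.9, 37.4, 52.0 and 118 CPM. Barhl2 and Gfra1 were thus highest with 2 UMIs, with overlapping intervals from 2 upward, while Pax3 and Drd1 were highest with 3 or more. Ccnd2 stood at 429, 872, 993 and 1661 CPM. On the lower side, Cnr1 stood at 383, 117, 86.6 and 34.9 CPM and Nefl at 634, 262, 239 and 121 CPM. Calb2 stood at 108, 19.9, 38.5 and 8.74 CPM, so its order was not even. The median depths of the 4 classes were 10166, 10555, 10635 and 11173 UMIs.

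**Figure D3:**
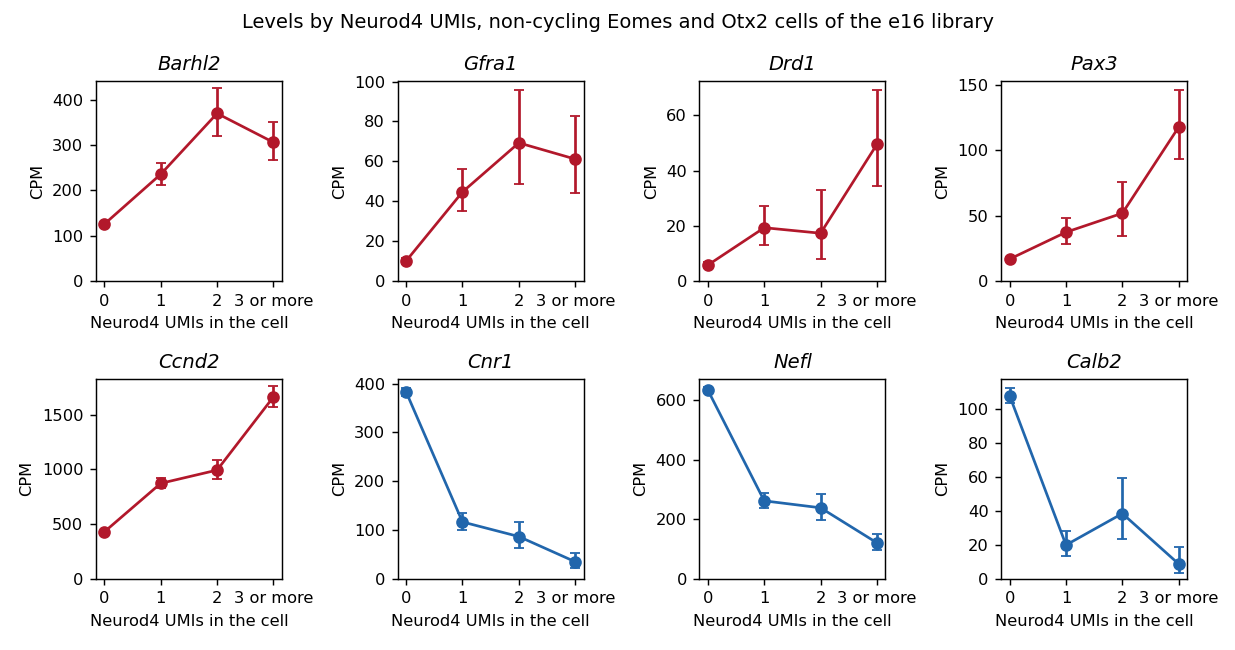
CPM of 8 genes in non-cycling Eomes and Otx2 cells of the e16 library with 0, 1, 2 and 3 or more Neurod4 UMIs; bars are 95% exact Poisson intervals. Pax3 stood at 16.9, 37.4, 52.0 and 118 CPM, and Cnr1 at 383, 117, 86.6 and 34.9 CPM.

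The 180 members with Lmx1a and the 77 without it differed less in Barhl2 and Gfra1 than in Drd1. Barhl2 stood at 265 CPM with Lmx1a and 305 CPM without it, and Gfra1 at 53.1 CPM in both. Drd1 stood at 32.8 CPM with Lmx1a and 10.6 CPM without it, Calb2 at 27.8 and 3.54 CPM, and Cnr1 at 117 and 30.7 CPM. Members without Lmx1a were thus lower in Drd1, Calb2 and Cnr1. Lmx1a was not part of the rule for members, and the values come from 1 library with no test.

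The members were then placed beside the most similar cells of the library, 214 cycling Eomes and Otx2 cells and 1366 non-cycling comparison cells, split into 1024 without and 342 with Calb2. Barhl2 was highest in Neurod4-positive cells, at 277 CPM, against 210 CPM in cycling cells, 131 CPM in cells without Calb2 and 42.3 CPM in cells with Calb2. Gfra1 stood at 53.1, 46.4, 10.7 and 3.89 CPM and Drd1 at 26.2, 17.9, 9.38 and 1.67 CPM in the same order of groups, and for both the intervals of members and cycling cells overlapped. Pax3 (59.4, 122, 15.2 and 7.51 CPM), Insm1 (266, 612, 108 and 63.4 CPM), Vim (706, 1084, 287 and 85.7 CPM) and Ccnd2 (1083, 1362, 429 and 258 CPM) were higher in cycling cells than in members. So was Mdk (245, 445, 77.0 and 40.1 CPM). For Shb (98.9 and 109 CPM) and Trhde (173 and 164 CPM) the intervals of members and cycling cells overlapped. Igfbpl1 (1067 and 961 CPM) and 1500015O10Rik (309 and 194 CPM) were higher in members. In the Tlx3 cells without Eomes, Mdk (387 CPM) and Shb (148 CPM) were above members. Igfbpl1 (977 CPM), Trhde (63.4 CPM) and 1500015O10Rik (24.4 CPM) were below members there. Cnr1 (91.5, 104, 390 and 833 CPM), Nefl (224, 213, 640 and 1056 CPM) and Cbln1 (341, 212, 678 and 901 CPM) were low in members and cycling cells and highest in cells with Calb2. Calb2 set the last split, so its own levels there are no finding.

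**Figure D4:**
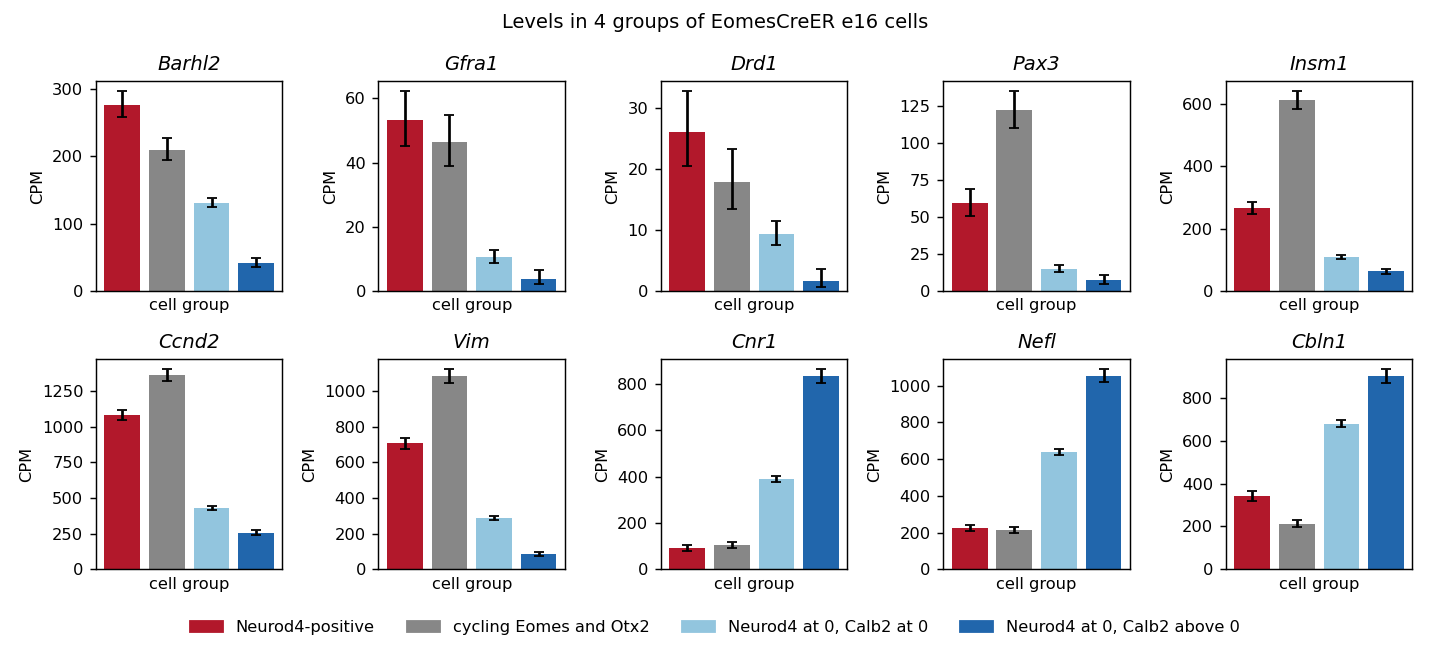
CPM of 10 genes in 4 groups of e16 cells that share no cell: Neurod4-positive cells, cycling Eomes and Otx2 cells, and non-cycling cells with Eomes, Lmx1a and no Neurod4, without and with Calb2; bars are 95% exact Poisson intervals. Barhl2 was highest in Neurod4-positive cells (277 CPM) and Cnr1 in cells with Calb2 (833 CPM).

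The RL libraries were not used to choose the e16 cells, and the same contrast was tested there. The RL groups were set by the same rule on their own values of the rule genes. Genes that go with the rule genes can therefore differ by that choice in both, and agreement with e16 is in part built in. RL e13 replicate 2 gave 17 members and 47 comparison cells, RL e14 replicate 1 gave 21 and 20, and RL e14 replicate 2 gave 9 and 33. Lmx1a, which every comparison cell held by rule, had a UMI in 5, 7 and 4 of these members. At e16 it had a UMI in 180 of 257 members. The RL groups thus differed in Lmx1a more than the e16 groups did, and the calls below hold that difference too. RL e13 replicate 1 had 0 members and stayed out. The planned minimum of 20 cells in both groups was met by 1 library, so the minimum of 5 cells was chosen after the data had been seen. limma with the library as a block tested 8073 genes, and with Benjamini-Hochberg adjustment over all of them 79 (0.979%) rose and 228 (2.82%) fell in Neurod4-positive cells at an adjusted p below 0.05. The labels do not say whether each RL library was a separate litter or embryo, so the p-values describe the scatter of these 3 libraries, which may be technical. Comparison cells in the RL libraries were often cycling, and without those with Mki67 or Top2a the test called 329 genes (4.12%) higher and 432 (5.4%) lower of 7994.

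Of the 61 genes higher in members at e16, 58 were tested in the RL libraries, 29 were higher in all 3 against 16.4% of all genes, and 13 were called. These 13 were 21.3% of the e16 genes and 16.5% of the 79 RL calls. Of the 104 lower genes 55 were tested, 40 were lower in all 3 against 20.3% of all genes, and 17 were called, 16.3% of the e16 genes and 7.46% of the 228 RL calls. With non-cycling comparison cells, 29 of 55 higher genes were higher in all 3 against 21.2% of all genes, and 45 of 63 lower genes were lower in all 3 against 22.5%. Of these 55 genes 21 were called higher, against 4.12% of all genes, and 1 was called lower. Of the 63 genes 31 were called lower, against 5.4% of all genes, and 0 higher.

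The genes called in both were led on the higher side by Ccnd2, Igfbpl1 and Mdk. Ccnd2 stood at 1782, 2988 and 2820 CPM in members of RL e13 replicate 2, RL e14 replicate 1 and RL e14 replicate 2, against 975, 1462 and 757 CPM in comparison cells. Every member value was above every comparison value (log2 difference 1.26 ± 0.15 SE, limma adjusted p = 0.00016). Igfbpl1 stood at 1148, 1368 and 1057 CPM against 764, 542 and 527 CPM (0.97 ± 0.14, limma adjusted p = 0.00068), and Mdk at 1590, 1703 and 1925 CPM against 929, 1122 and 567 CPM (1.04 ± 0.17, limma adjusted p = 0.0019). Neither pair of groups overlapped. Col16a1, a collagen, had the largest RL difference of these 13 genes, with 70.5, 103 and 266 CPM against 28.4, 21.7 and 18.2 CPM (2.25 ± 0.36, limma adjusted p = 0.0018). That call was lost with Lmx1a required of members (log2 difference 0.084, limma adjusted p = 0.995) and with the rule applied after thinning (1.26, limma adjusted p = 0.351). The other 9 were Igfbp5, Gamt, Cd63, Rnd3, Nek6, Fam210b, Abca4, Man1c1 and Ldha, of which Gamt was not called with non-cycling comparison cells (limma adjusted p = 0.15). Fam210b did not keep its call in every processing setting (highest limma adjusted p = 0.99).

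On the lower side, Nefl stood at 77.2, 78.4 and 64.8 CPM in RL members in the same order of libraries, against 1261, 397 and 1581 CPM in comparison cells (-3.57 ± 0.29, limma adjusted p = 6.4e-06). Cnr1 had 2, 3 and 0 UMIs in members, which is 6.71, 10.7 and 0 CPM, against 53.5, 80.6 and 179 CPM (-3.32 ± 0.49, limma adjusted p = 0.00089). Cbln1 stood at 33.6, 28.5 and 38.9 CPM against 163, 174 and 445 CPM (-2.63 ± 0.25, limma adjusted p = 1.7e-05). For all 3 genes every member value lay below every comparison value. Runx1t1 stood at 57.0, 39.2 and 84.3 CPM against 141, 139 and 181 CPM (-1.33 ± 0.22, limma adjusted p = 0.0023), and Scg2 at 6.71, 7.12 and 0 CPM against 93.8, 43.4 and 69.3 CPM (-2.99 ± 0.44, limma adjusted p = 0.00079). The Runx1t1 call was lost with Lmx1a required of members (-0.95, limma adjusted p = 0.377). The 17 also held Pid1, Cenpf, Mgat5, Ppp1r14c, Nefm, Plcxd3, Gria2, Lhfp, Mest, Gm2694 and Fez1. Plcxd3, Gria2 and Lhfp did not keep their call in every processing setting (highest limma adjusted p = 0.41, 0.27 and 0.65). Cenpf, a gene of mitosis, was not called with non-cycling comparison cells (log2 difference 0.64, limma adjusted p = 0.54), nor was Mest (limma adjusted p = 0.08).

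**Figure D5:**
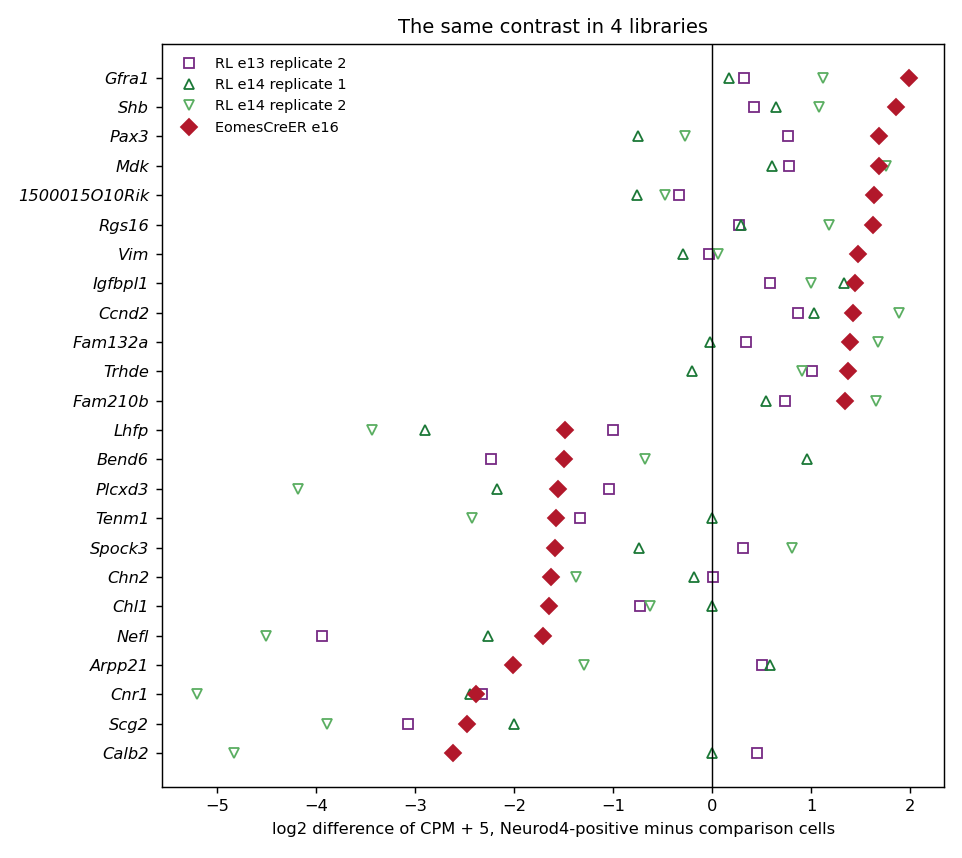
log2 difference of CPM + 5 between Neurod4-positive and comparison cells in the e16 library (diamonds) and in 3 RL libraries (open symbols) for the genes with the 12 highest and 12 lowest e16 differences. Mdk, Igfbpl1 and Ccnd2 lay above 0 in all 4 libraries and Nefl, Cnr1 and Scg2 below 0, while 1500015O10Rik lay above 0 at e16 and, beside all comparison cells, below 0 in the RL libraries; beside non-cycling ones RL e14 replicate 1 stood at 1.28.

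The markers of the e16 cells were not called in the RL libraries. Barhl2 stood at 47.0, 89.0 and 162 CPM in members against 37.1, 52.7 and 60.2 CPM (0.79 ± 0.27, limma adjusted p = 0.13). Gfra1 stood at 6.71, 32.1 and 45.4 CPM against 4.36, 27.9 and 18.2 CPM (0.54 ± 0.42, limma adjusted p = 0.6), and Drd1 at 0, 39.2 and 25.9 CPM against 1.09, 9.29 and 5.47 CPM (0.97 ± 0.55, limma adjusted p = 0.43). Barhl2 and Gfra1 were higher in members in all 3 libraries and Drd1 in 2 of 3, from 2, 9 and 7 Gfra1 UMIs and 0, 11 and 4 Drd1 UMIs in all. Pax3 stood at 138, 60.6 and 51.9 CPM against 78.5, 105 and 63.8 CPM and went both ways, as did Vim at 1604, 1403 and 1225 CPM against 1636, 1720 and 1173 CPM. Calb2 had 3.36, 0 and 0 CPM in members against 1.09, 0 and 137 CPM (-1.46 ± 0.83, limma adjusted p = 0.44), so its comparison level came from RL e14 replicate 2. Shb, Insm1 and Olig3, not called beside all comparison cells (limma adjusted p = 0.3, 0.38 and 0.32), were called higher beside non-cycling ones (limma adjusted p = 0.017, 0.019 and 0.0066).

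Beside non-cycling comparison cells, the lists of neuronal differentiation and S phase had the most calls in the RL libraries, 12 each, while the 4 cerebellin and reelin genes tested, 3 of them lower, had a median log2 difference of -2.29. Of 15 genes of neuronal differentiation 12 fell and 0 rose, among them Mapt, the tau protein, with 63.8, 74.8 and 58.3 CPM in members against 780, 586 and 1007 CPM (-3.47 ± 0.21, limma adjusted p = 2.0e-08), and Dcx with 238, 160 and 149 CPM against 838, 461 and 765 CPM. Of 14 S phase genes 12 rose and 0 fell, among them Mcm6, a subunit of the replicative helicase, with 319, 335 and 279 CPM against 60.8, 105 and 27.5 CPM (2.35 ± 0.26, limma adjusted p = 1.2e-05). Mki67 and Top2a were at 0 in both groups by rule. Atoh1, the proneural factor of the rhombic lip, rose as well, with 346, 299 and 110 CPM against 128, 92.1 and 19.3 CPM (1.76 ± 0.24, limma adjusted p = 0.0001), while Nhlh1 and Nhlh2 fell. Of 6 genes of the glutamatergic nuclei tested, Meis2 and Tbr1 fell and 0 rose, with a median log2 difference of -0.06. Meis2 had 3.36, 0 and 0 CPM in the members against 167, 6.58 and 162 CPM in non-cycling comparison cells. Tbr1 had no UMI in the members against 80.4, 6.58 and 52.3 CPM. The comparison levels of both were thus low in RL e14 replicate 1. Lhx9, of the same list, went the other way without a call (0.43, limma adjusted p = 0.66). Beside all comparison cells the S phase genes rose in 5 of 14 and the neuronal genes fell in 11 of 15, and 13 of 15 genes of G2 and M phase fell, where only the comparison cells could hold Mki67 or Top2a. The RL genes named by size alone were led by Col16a1, Cmtm3, Ung, Mmp14 and Hadh on the higher side and by Nefm, Tpx2, Cenpf, Nusap1 and Ccnb1 on the lower side, and 4 of the last 5 are genes of mitosis.

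Neurod4-positive cells at e16 and in the RL libraries differed in level as well as in number. Of 7942 genes, 725 (9.13%) lay above every RL library with members and at least 2-fold above the median of these libraries. Another 425 (5.35%) lay below every one and at least 2-fold below the median, with 5 CPM added to each level. Atoh1 stood at 18.2 CPM in e16 members, against the 110 to 346 CPM above. Lmx1a stood at 169 CPM at e16 against 20.1 to 84.3 CPM, Cbln1 at 341 against 28.5 to 38.9 CPM and Barhl2 at 277 against 47.0 to 162 CPM. Mdk stood the other way, at 245 CPM at e16 against 1590 to 1925 CPM, and so did Vim, at 706 against 1225 to 1604 CPM. Age, mouse line and library cannot be told apart here, and the e16 side is 1 library.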

How the data were processed

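Single-cell libraries had been made with 10x Chromium 3′ kits, per the labels' protocols, and, per the submitters' processing notes, reads were handled with Cell Ranger on mm10. The table deposited by the authors held natural log values of 15971 genes, and undoing the log in each cell gave whole UMI counts for 100% of the values above 0 (tolerance 0.01 of a count). The library of each cell came from a second table. 4 batch names matched RL titles, and the remaining one was taken as EomesCreER e16, as the rule of the cells asks.

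UMIs were summed per group and scaled to CPM. e16 genes were counted from a log2(CPM + 5) difference of 1, with no test. RL profiles were tested with limma 3.58.1 (trend, R 4.3.3) on log2(CPM + 5), which understates changes of low genes, with the library as a block, since both groups come from the same libraries, and Benjamini-Hochberg adjustment (threshold 0.05). The planned test needed 3 libraries with 20 cells in both groups, and the minimum of 5 was added after seeing the data. In simulated RL profiles of 8040 genes, 29.2% of changed genes were recovered at a log2 change of 1 and 91.3% at 2, and 7 of 130 calls were false. The simulation gave every gene the same scatter and the libraries no difference, and it changed no gene of low level. Its rates may therefore not hold for the real profiles. At 1261 genes the unadjusted p was below 0.05. Named genes were the rule genes and markers, the 12 highest and 12 lowest e16 differences with 50 CPM or more in 1 group, up to 3 called members of each list, and the 5 highest and 5 lowest RL calls. Other genes, given beside a list, were chosen after their values were seen. The members and lists were chosen with earlier results of these data known. Intervals cover counting error only. Gene positions and promoters come from GENCODE vM21 and RefSeq. Some genes of these lists are not reported here.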

Additional observations from a re-analysis of the deposited data

Results flagged for a closer look

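1500015O10Rik differed in direction between the e16 and the RL libraries beside all comparison cells, and less so beside non-cycling ones. Its log2 difference between Neurod4-positive and comparison cells was 1.64 at e16 (309 against 95.9 CPM) and -0.34, -0.76 and -0.48 in RL e13 replicate 2, RL e14 replicate 1 and RL e14 replicate 2. The RL values rest on 2 UMIs in the members of each library (6.71 and 7.12 CPM in the first and second of these, against 9.82 and 15.5 CPM in comparison cells), and the difference between the libraries was not tested. Beside non-cycling comparison cells the RL differences were -0.22, 1.28 and -0.06 in the same order, so the opposite direction in all 3 libraries depends on the comparison cells.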

How the results depend on the processing

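The e16 counts of 61 higher and 104 lower genes became 20 and 30 with a pseudocount of 20 CPM, 118 and 202 with Neurod4 at 2 or more UMIs, and 116 and 158 with the rule applied after thinning; the other 8 settings stayed within 1.5 times. Over 539 values of 49 named e16 genes in the alternatives none changed sign, though 22 genes came under a log2 difference of 1 in at least 1 setting, with 0.46 as the lowest value. The share at e16 was 6.34% after thinning, 4.07% with 2 or more Neurod4 UMIs and 6.73% with Lmx1a required. In RL e13 replicate 2 these were 0.332%, 0.165% and 0.275%, and in RL e14 replicate 1 0.575%, 0.860% and 0.669%. In RL e14 replicate 2 they were 0.814%, 0.540% and 0.540%.

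The RL counts of 79 higher and 228 lower genes depended on the processing, and the cause was not tested. Higher genes numbered 49 with a pseudocount of 1 CPM, 147 with no filter, 28 with Lmx1a required of members (2 libraries), 180 without the 5% of cells with the most UMIs and 35 with the rule applied after thinning. They numbered 329 with non-cycling comparison cells and 250 with non-cycling ones that also had Otx2. Lower genes numbered 409 with no filter, 432 with non-cycling comparison cells, 111 with Lmx1a required and 143 after thinning. Leaving out 1 library gave 61 to 125 higher and 239 to 267 lower genes, with 125 higher without RL e14 replicate 2. Without the library as a block, 13 rose and 105 fell, so the pairing by library moved both counts. Cenpf turned to 0.64 with non-cycling comparison cells and 0.72 with those that had Otx2, and Fam210b and Ung to -0.081 and -0.015 with Lmx1a required of members. A minimum of 10 cells left 2 libraries and was not run, and Neurod4 at 2 or more UMIs left 1. Sums over 9 to 21 member cells limit what the RL test can show.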
